A study of Homo sapiens with 15 samples.

Results

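The keratins of simple and basal epithelium were followed through LNCaP, a human prostate cancer cell line that responds to androgen and resembles luminal cells. Their members were the 9 rows named KRT5, KRT7, KRT8, KRT14, KRT15, KRT17, KRT18, KRT19 and KRT80 among the 26443 genes with values. Of these, 5 reached 1 RPKM (reads scaled to gene model length and library size) in at least 1 library and were tested, namely KRT8, KRT18, KRT19, KRT14 and KRT80. The remaining 4, KRT5, KRT7, KRT15 and KRT17, stayed under 1 RPKM in all 15 libraries.

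The cells had been infected with lentivirus for 4 to 5 days, and every group was labelled as wild type in genotype. The control group, pLKO, received the empty vector. The groups shPALI1, shG9a, shJarid2 and shsuz12 received a hairpin against PALI1, which the LCOR locus encodes and which associates with PRC2, against the histone H3 lysine 9 methyltransferase G9a (gene EHMT2), or against the PRC2 subunits JARID2 and SUZ12. PRC2 methylates lysine 27 of histone H3. Each group had 3 libraries of total RNA. The labels give 1 hairpin name per target, so effects of a target and of its hairpin cannot be told apart, and they do not say that replicates came from separate cultures, so the p-values measure only the spread between libraries, which may be technical.

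Keratins are the intermediate filament proteins of epithelia, and a filament is built from pairs of 1 acidic type I and 1 basic type II chain. KRT8 (type II) and KRT18 (type I) form the pair of simple and glandular epithelia, including luminal cells of the prostate, where KRT19 (type I) often joins them. KRT5 (type II) and KRT14 (type I) form the pair of basal cells, which may also hold KRT15 and KRT17. KRT7 belongs to ductal simple epithelia, and KRT80 is a type II keratin found in many epithelia near desmosomes.

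Depth, worked out from the size of 1 read in the values, was 10.56 to 19.36 M reads a library. Every targeted transcript was lower under its own hairpin: mean SUZ12 was at 12.5% of pLKO, JARID2 at 18.3%, EHMT2 at 25.7%, and in shPALI1 C10orf12 at 23.8% and LCOR at 60%. In shJarid2, replicate 3 stood apart, with log2(RPKM + 1) correlating at 0.975 and 0.978 with its group across genes, against 0.986 to 0.992 for the other pairs of replicates. All 12 luminal markers of the prostate passed the filter on low values. Of the basal markers other than keratins, TP63, the defining transcription factor of basal cells, reached at most 0.0111 RPKM and NGFR at most 0.0385 RPKM. Of the immune markers, CD3E and MS4A1 were at 0 in every library and PTPRC reached at most 0.018 RPKM, whereas CD68, a lysosomal protein abundant in macrophages, was at 2.03 to 4.85 RPKM. The summed immune list lay between 2.28 and 3.28 RPKM in pLKO, 4.17 and 4.78 in shPALI1, 2.53 and 3.31 in shG9a, 3.51 and 4.94 in shJarid2 and 2.15 and 2.73 RPKM in shsuz12, mostly CD68, and its part in the keratin differences was not tested.

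KRT8 and KRT18 were the most abundant members in every group, and both were highest in the shJarid2 libraries. KRT8 stood at 90.7, 84.8 and 80.9 RPKM in pLKO and at 140, 154 and 206 RPKM in shJarid2, and KRT18 at 91.7, 81.7 and 77.2 RPKM against 130, 138 and 172 RPKM. The groups did not overlap for either gene, and replicate 3 was the highest of the shJarid2 libraries for both. On the log2(RPKM + 1) scale, which is used for all differences that follow, KRT8 rose by 0.94 ± 0.11 (SE, limma adjusted p = 1e-05) and KRT18 by 0.80 ± 0.09 (adjusted p = 7e-06). Without shJarid2 replicate 3 the differences were 0.78 and 0.68, and both still passed at 0.05. In bulk RNA, more cells with a transcript and more transcript per cell cannot be told apart.

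The other hairpins moved this pair by less. In shG9a, KRT8 stood at 111, 121 and 118 RPKM, above all pLKO libraries, and rose by 0.44 ± 0.11 (limma adjusted p = 0.0058). KRT18 in shG9a was at 93.8, 101 and 96.1 RPKM, also above pLKO, but its difference of 0.22 ± 0.09 missed the threshold (adjusted p = 0.075, 95% interval 0.02 to 0.41). That call depends on the scaling: with median ratio scaling it was 0.25 (adjusted p = 0.028), and without pLKO replicate 1 it was 0.28 (adjusted p = 0.0374).

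In shPALI1 and shsuz12 the type I partner was lower while the type II partner did not pass. KRT18 stood at 70, 64.3 and 67.8 RPKM in shPALI1 and at 65.4, 64.5 and 65.9 RPKM in shsuz12, below every pLKO library. It fell by 0.30 in shPALI1 (SE 0.09, limma adjusted p = 0.018) and by 0.35 in shsuz12 (SE 0.09, adjusted p = 0.0059). The shPALI1 call was lost without pLKO replicate 1 (adjusted p = 0.0804) and without shPALI1 replicate 2 (adjusted p = 0.0668).

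KRT8 was at 84.2, 74.5 and 72.5 RPKM in shPALI1 and at 79.4, 84.2 and 87 RPKM in shsuz12, overlapping pLKO in both. Its differences were -0.15 ± 0.11 (limma adjusted p = 0.31, 95% interval -0.39 to 0.09) and -0.03 ± 0.11 (adjusted p = 0.83, 95% interval -0.28 to 0.21). The shsuz12 difference turned to 0.05 with median ratio scaling, 0.10 with rescaling to a common sum (TPM) and 0.15 with quantile normalization, and the last of these passed (adjusted p = 0.0199).

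**Figure D1:**
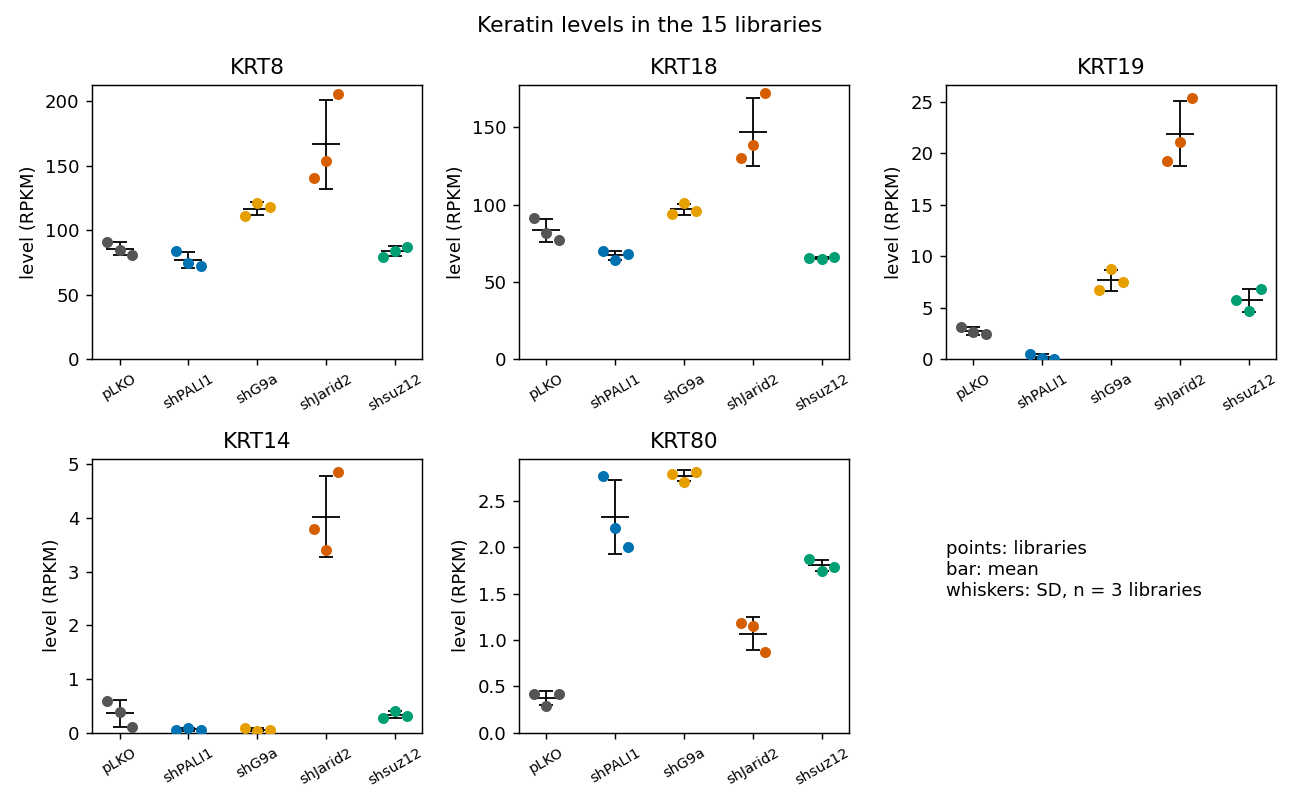
Level of each tested keratin in RPKM (vertical axis, linear, from 0) in the 15 libraries by group; points are libraries, bars are means and whiskers are SD over 3 libraries. KRT8, KRT18, KRT19 and KRT14 had all 3 shJarid2 libraries above the other 12, as 11.5% of all tested genes did, whereas KRT80 was lowest in pLKO and highest in shG9a. KRT14 passed the filter only through the shJarid2 libraries, and KRT80 only through hairpin libraries.

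The pair assembles in equal amounts, and the ratio of KRT8 to KRT18 RPKM was taken in each library. It was 0.99, 1.04 and 1.05 in pLKO, with a mean of 1.03 ± 0.031 (SD, n = 3). The ratio was higher in all 12 hairpin libraries: its mean was 1.14 ± 0.067 in shPALI1, 1.2 ± 0.023 in shG9a, 1.13 ± 0.061 in shJarid2 and 1.28 ± 0.057 in shsuz12. The separation was narrow, with 1.05 the highest of pLKO and 1.07 the lowest of shPALI1, and the ratio was given no test. KRT8 and KRT18 together made up a mean of 87.8% to 91.1% of the RPKM of all keratins in every group.

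The levels of the pair carry a counting limit. On GRCh38 (GENCODE v29), KRT8 lies on the minus strand at chr12:52897187-52949954 and KRT18 on the plus strand at chr12:52948871-52952901. Their annotated spans overlap by 1084 bases and their exons by 525 bases, and whether counting used strand is not given in the sources used here. Of all 50-base words in KRT18 transcripts, 35.9% also occur in transcripts of other genes, among them KRT8 (16.2%) and KRT18 pseudogenes. Of those of KRT8, 16.2% occur in other genes, with the largest share in its pseudogene KRT8P3 (7.5%). Reads from the shared stretches cannot be told apart.

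**Figure D2:**
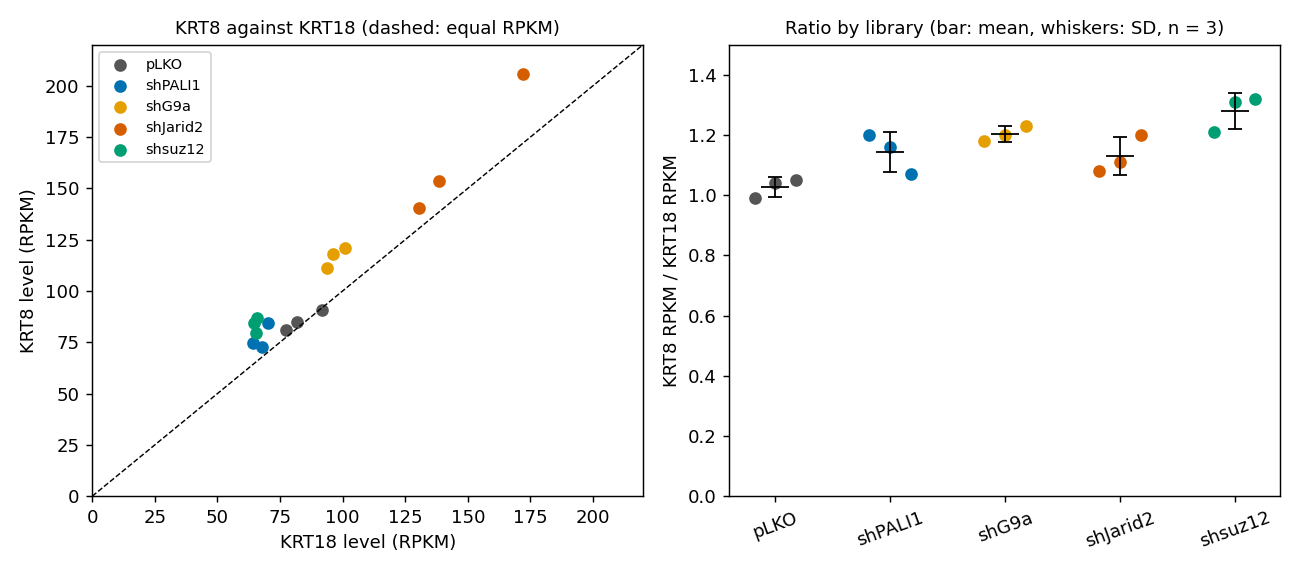
KRT8 against KRT18 in RPKM for the 15 libraries (left, dashed line at equal RPKM) and their ratio per library by group (right, bars are means, whiskers SD over 3 libraries). The pLKO libraries lay on or near the line, between 0.99 and 1.05, and the 12 hairpin libraries had higher ratios, up to 1.32 in shsuz12.

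KRT19, a short type I keratin that lacks most of the tail domain and marks simple and ductal epithelium, differed from pLKO under all 4 hairpins, and in both directions. In pLKO it stood at 3.14, 2.6 and 2.39 RPKM. In shPALI1 it was at 0.515, 0.148 and 0.0495 RPKM, which is 8, 3 and 1 reads against 57, 61 and 41 reads in pLKO. These groups did not overlap, and KRT19 fell by 1.60 (SE 0.15, limma adjusted p = 2.1e-06). Scaled for depth, the 12 reads in shPALI1 against 159 in pLKO gave a ratio of 0.0792, with a 95% interval of 0.0401 to 0.142 that covers counting error only.

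Under the other hairpins KRT19 was higher than in pLKO. It stood at 5.72, 4.63 and 6.83 RPKM in shsuz12, at 6.74, 8.77 and 7.49 RPKM in shG9a and at 19.3, 21.1 and 25.4 RPKM in shJarid2, and none of these libraries overlapped pLKO. It rose by 0.85 ± 0.15 in shsuz12 (limma adjusted p = 0.00037), by 1.22 ± 0.15 in shG9a (adjusted p = 2.5e-05) and by 2.62 ± 0.15 in shJarid2 (adjusted p = 1.3e-08). The ratios of mean RPKM were 2.11, 2.83 and 8.09.

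The order of KRT19 levels was therefore shJarid2, shG9a, shsuz12, pLKO and shPALI1. Neighbours in this order differed beyond their spread except shG9a and shsuz12 (limma adjusted p = 0.065). Among the type I members, KRT19 made up a mean of 0.344% of RPKM in shPALI1, 3.12% in pLKO, 7.3% in shG9a, 8% in shsuz12 and 12.7% in shJarid2. Of its 50-base words, 1.6% also occur in a pseudogene.

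KRT14, the type I keratin of basal cells, was near the limit of detection outside shJarid2. It stood at 3.79, 3.41 and 4.86 RPKM in shJarid2, that is 98, 82 and 99 reads. In pLKO it was at 0.593, 0.384 and 0.105 RPKM, that is 12, 10 and 2 reads, and the groups lay far apart. KRT14 rose in shJarid2 by 1.89 ± 0.13 (limma adjusted p = 6.2e-08), and its depth-scaled reads were 10.8 times those of pLKO (95% counting interval 7.11 to 17.1). It passed the filter only through the shJarid2 libraries, so it enters the count of changed members in shJarid2 partly by that choice.

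The other groups held few KRT14 reads. There were 9, 9 and 6 in shsuz12, at 0.284, 0.407 and 0.305 RPKM, within the range of pLKO (difference -0.02 ± 0.13, limma adjusted p = 0.93, 95% interval -0.30 to 0.27). There were 4 reads in all of shPALI1 and 4 in all of shG9a, against 24 in pLKO. The levels were 0.0579, 0.0889 and 0.0445 RPKM in shPALI1 and 0.0898, 0.0402 and 0.0426 RPKM in shG9a, below all pLKO libraries.

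KRT14 fell by 0.35 in shG9a (SE 0.13, limma adjusted p = 0.049), and that call was lost without pLKO replicate 1 (adjusted p = 0.208) or 2 (adjusted p = 0.115) and without any 1 shG9a library (adjusted p up to 0.109). The call was also lost with median ratio scaling (adjusted p = 0.051) and with quantile normalization (adjusted p = 0.066). In shPALI1 the KRT14 difference of -0.34 ± 0.13 did not pass (adjusted p = 0.055), but it passed without pLKO replicate 3 (-0.48, adjusted p = 0.00918). It also passed with pseudocounts of 0.1 (adjusted p = 0.0184) and 0.5 (adjusted p = 0.0341). The same held with quantile normalization (adjusted p = 0.0437) and TPM (adjusted p = 0.0408). On so few reads the depth-scaled ratio to pLKO was 0.175 in shPALI1 (95% counting interval 0.0441 to 0.509) and 0.154 in shG9a (0.0389 to 0.449).

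KRT14 shares 23.8% of its 50-base words with other genes. The largest shares were with KRT16 (11.2%), an adjacent type I keratin of activated epidermis, and with KRT16 pseudogenes. KRT16 itself was listed at 0 in all 3 shJarid2 libraries. The share of KRT14 reads that could have been assigned otherwise was not tested.

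The usual partner of KRT14, the type II keratin KRT5, was listed at 0 in all libraries but 1, shPALI1 replicate 1, at 0.0822 RPKM. A count of 0 allows up to 3 reads, which for KRT5 corresponds to 0.0673 to 0.123 RPKM depending on the library. KRT17, a type I keratin induced in stressed and basal epithelium, had no library above 1 read and reached at most 0.0602 RPKM. At this depth a fall of either gene, or a rise that stayed within these few reads, was not detectable.

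KRT15, a type I keratin of basal and progenitor cells, stayed under 1 RPKM but was higher in shJarid2. It stood at 0.481, 0.554 and 0.349 RPKM there, that is 14, 15 and 8 reads, against 0, 0.0341 and 0 RPKM in pLKO, with 1 read in total. All 12 libraries of the other groups were at 0.12 RPKM or less. Without the filter on low values, KRT15 in shJarid2 differed from pLKO by 0.53 ± 0.06 (limma adjusted p = 1.4e-05). The depth-scaled ratio of 34.4 rests on that 1 read and has a 95% counting interval of 5.8 to 1394.

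KRT15 and KRT19 are neighbours in the type I keratin cluster, and KRT9 lies between KRT19 and KRT14. On GRCh38 (GENCODE v29) KRT15, KRT19 and KRT14 lie on the minus strand at chr17:41513743-41522529, chr17:41523617-41528308 and chr17:41582279-41586921. Of the 28 keratin genes of this chromosome in the table, 4 had all 3 shJarid2 libraries above the other 12: these 3 members and KRT36, a type I hair keratin at chr17:41486136-41492546. Among all 12715 tested genes, 11.5% had that pattern, and KRT15 is not among the tested genes. By RefSeq coordinates the stretch from KRT36 to KRT14 spans 100760 bases.

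Levels within that stretch were not uniform. KRT36 stood at 1.5, 1.12 and 1.07 RPKM in shJarid2 and at 0.157 RPKM or less elsewhere, with 0 reads in shPALI1 and shG9a, and it rose by 1.09 ± 0.10 against pLKO (limma adjusted p = 8e-07). Like KRT14, it passed the filter only through the shJarid2 libraries, where it had to be high to be tested. KRT13 and KRT9, which lie between the 4 genes, had at most 0.0737 and 0.0353 RPKM in any library. KRT16 and KRT17, the next genes beyond KRT14, were at or near 0 in all groups.

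**Figure D3:**
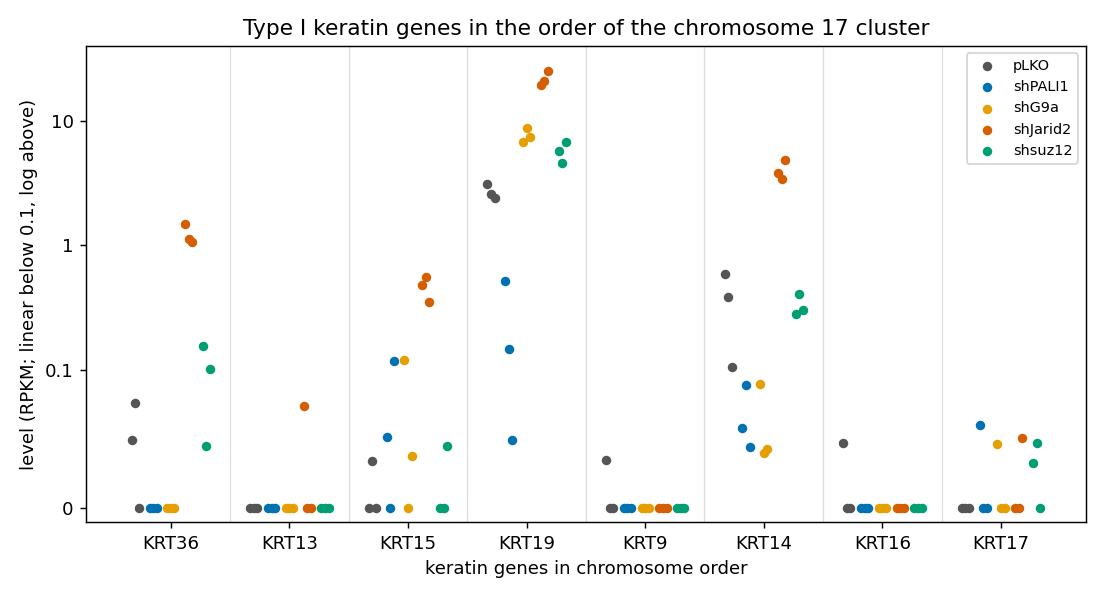
Level in RPKM (vertical axis linear below 0.1 and logarithmic above) of 8 type I keratin genes in chromosome order; points are libraries, coloured by group. In shJarid2, KRT36, KRT15, KRT19 and KRT14 lay above the other 12 libraries, while KRT13, KRT9, KRT16 and KRT17 were at or near 0 in all groups.

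KRT80 had a pattern of its own. It was lowest in pLKO, at 0.416, 0.29 and 0.419 RPKM, and no hairpin library overlapped these. It stood at 2.77, 2.2 and 2 RPKM in shPALI1 and at 2.79, 2.7 and 2.81 RPKM in shG9a. It was at 1.87, 1.75 and 1.79 RPKM in shsuz12 and at 1.18, 1.15 and 0.866 RPKM in shJarid2.

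KRT80 rose under all 4 hairpins: by 1.27 ± 0.10 in shPALI1 (limma adjusted p = 2e-07), 1.46 ± 0.10 in shG9a (adjusted p = 5.8e-08), 1.03 ± 0.10 in shsuz12 (adjusted p = 9.4e-07) and 0.59 ± 0.10 in shJarid2 (adjusted p = 0.00017). These comparisons share the 3 pLKO libraries, so the common direction is not 4 independent results. KRT80 was under 1 RPKM in pLKO and passed the filter only through hairpin libraries, where it had to be higher to be tested. The depth-scaled ratios of reads, against 57 in pLKO, were 6.24 in shPALI1, 7.55 in shG9a, 4.94 in shsuz12 and 2.95 in shJarid2, and the lowest bound of their 95% counting intervals was 2.18.

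In the order of KRT80 levels, shG9a and shPALI1 did not differ beyond their spread (limma adjusted p = 0.13). The step from shPALI1 to shsuz12 was 0.24 (adjusted p = 0.048) and was lost when any 1 of 5 libraries of that comparison was left out, with pseudocounts of 0.1 and 0.5, with no filter, with median ratio scaling, with TPM and with the 6 libraries alone. The step from shsuz12 to shJarid2 was 0.44 ± 0.10 (adjusted p = 0.0013). KRT80 lies on the minus strand at chr12:52168996-52192000, in the type II keratin cluster that also holds KRT7, KRT5 and KRT8, and shares 0.4% of its 50-base words with other genes.

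KRT7, at chr12:52232520-52252186 on the plus strand and next to KRT80 among the members, had 0 to 2 reads in every library and reached at most 0.0799 RPKM. Across the 5 groups it had 2, 0, 3, 5 and 3 reads in pLKO, shPALI1, shG9a, shJarid2 and shsuz12. Without the filter on low values no comparison with pLKO passed (smallest limma adjusted p = 0.22). Between hairpins, shPALI1 against shJarid2, with 0 against 5 reads, differed by -0.09 ± 0.03 (adjusted p = 0.012). The intervals of the KRT7 ratios to pLKO, for example 0.38 to 24.4 in shJarid2, contain the KRT80 ratios of shG9a, shJarid2 and shsuz12. At this depth it cannot be said whether KRT7 followed KRT80 in these groups. In shPALI1, on 0 reads against 2, the KRT7 interval of 0 to 5.59 lay below the KRT80 ratio of 6.24 but overlapped its interval of 4.71 to 8.42.

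**Figure D4:**
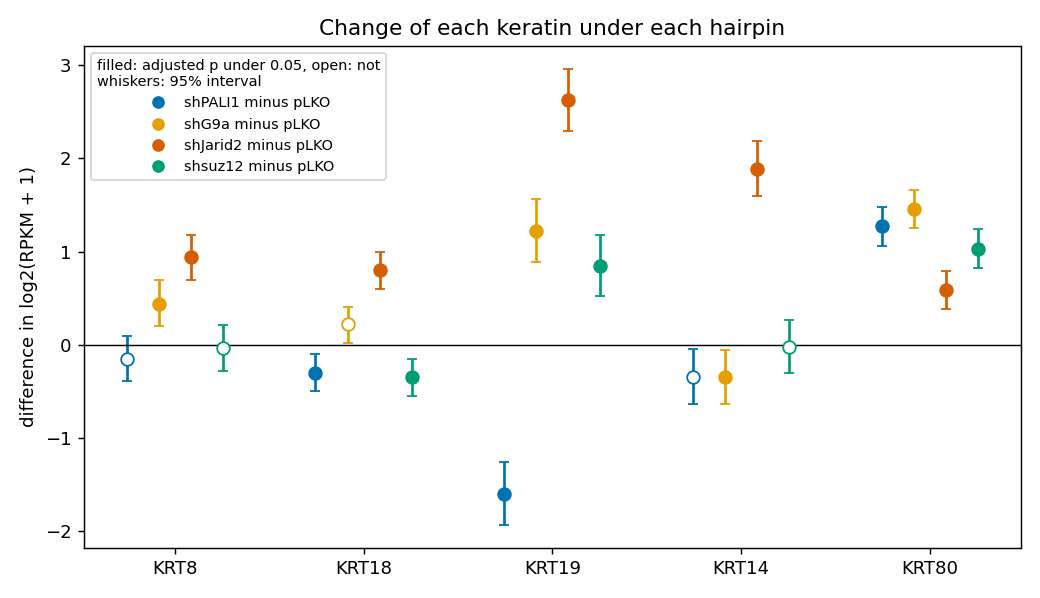
Difference from pLKO in log2(RPKM + 1) of each tested keratin under each hairpin; filled points passed at a limma adjusted p under 0.05, open points did not, and whiskers are 95% intervals. KRT19 ranged from -1.60 in shPALI1 to 2.62 in shJarid2, and KRT80 was above 0 under all 4 hairpins.

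Counted over the 5 tested members, shPALI1 had 1 higher (KRT80), 2 lower (KRT18 and KRT19) and 2 that did not pass, against 41.6% of all tested genes called, 16.5% higher and 25.1% lower. In shG9a 3 were higher (KRT8, KRT19 and KRT80) and 1 was lower (KRT14), against 43.1% called, 18.4% higher and 24.7% lower. That split of the members was 4 higher and 0 lower with median ratio scaling, quantile normalization and the 6 libraries alone. It was 4 higher and 1 lower with TPM. With shJarid2, 5 of 5 were higher, against 51% called, 23.8% higher and 27.2% lower. KRT14 passed the filter only through the shJarid2 libraries, so its place in this count and in the median below follows partly from that choice. KRT80 passed the filter only through hairpin libraries, so its place among the higher members in all 4 comparisons also follows partly from that choice. For shsuz12, 2 were higher (KRT19 and KRT80) and 1 was lower (KRT18), against 53.9% called, 21.1% higher and 32.8% lower. With TPM, the split of all called genes moved from 42.7% to 58% higher in shG9a and from 39.1% to 53.3% higher in shsuz12. The shares of all genes called were so large that a count of 3 of 5 is near the background in shPALI1 and shsuz12. The median difference of the 5 members was -0.30, 0.44, 0.94 and -0.02 in these 4 comparisons, beside -0.052, -0.040, -0.038 and -0.078 over all tested genes. The shsuz12 median turned to 0.05, 0.15 and 0.10 with median ratio scaling, quantile normalization and TPM.

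Contrasts between hairpins do not use pLKO. Mean levels of KRT8, KRT18, KRT19 and KRT14 were higher in shJarid2 than under each of the other hairpins, and that of KRT80 was lower. All 5 members passed in that way against shPALI1 (62.3% of all tested genes called), against shG9a (55.8% called) and against shsuz12 (59% called). KRT14 entered these counts only through the shJarid2 libraries. The widest gap was that of KRT19 between shPALI1 and shJarid2, at -4.22 ± 0.15 (limma adjusted p = 5.2e-11). Against shsuz12, which targets the same complex, shJarid2 was higher by 1.15 ± 0.09 in KRT18 (adjusted p = 1.5e-07) and by 1.90 ± 0.13 in KRT14 (adjusted p = 3.7e-08).

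KRT19 had the largest difference in the remaining contrasts with shPALI1, but it did not pass between shG9a and shsuz12. From shG9a to shPALI1, KRT19 differed by -2.82 ± 0.15 (limma adjusted p = 4.7e-09), KRT8 by -0.59 ± 0.11 and KRT18 by -0.52 ± 0.09, so that 3 of 5 passed beside 48.2% of all tested genes called. Between shPALI1 and shsuz12, 2 of 5 passed beside 55.9% called: KRT19 at -2.45 ± 0.15 (adjusted p = 1.5e-08) and the narrow KRT80 difference above. Neither partner of the KRT8 and KRT18 pair passed there, with 95% intervals of -0.36 to 0.13 and -0.16 to 0.24. From shsuz12 to shG9a, KRT8 (0.48), KRT18 (0.56) and KRT80 (0.43) differed, so that 3 of 5 passed beside 45.6% called. KRT19 differed there by 0.37 ± 0.15 (limma adjusted p = 0.065, 95% interval 0.04 to 0.70).

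Across the 15 libraries KRT8 and KRT18 varied together, with a Pearson r of 0.96 on log2(RPKM + 1). KRT19 correlated with KRT8 at 0.86 and with KRT18 at 0.79, and KRT14 with KRT18 at 0.83. KRT80 did not follow them, with r between -0.40 and -0.07. These r describe 15 libraries in 5 groups, so they mostly restate differences between group means, and the members share library and depth.

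The genes most like each member over the 15 libraries were, for KRT8, NANS (r 0.978), DUS1L (0.974) and KCNK1 (0.968), and for KRT18, NANS (0.972), CLDN7 (0.972) and HTATIP2 (0.969). NANS, an enzyme of sialic acid synthesis, thus headed both lists of the pair. For KRT19 they were TSPAN15 (0.985), POMT1 (0.983) and PRSS27 (0.983), and for KRT14 they included CCDC53 (0.983) and ANXA11 (0.980). The values for KRT80 were lower, with ST7 at 0.936, TFPI at 0.930 and C11orf95 at 0.927. TSPAN15, a membrane tetraspanin, had mean levels of 19, 10.2, 40.9, 71 and 33.1 RPKM in pLKO, shPALI1, shG9a, shJarid2 and shsuz12, the same order of groups as KRT19.

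Of the 46 other keratins in the table, 44 stayed under 1 RPKM in every library, 10 of them at 0 throughout. The exceptions were KRT36 and KRT10, a type I keratin of differentiating epidermis that had mean levels of 9.65 to 14.7 RPKM over the groups. KRT10 fell in shG9a by 0.55 (SE 0.13, limma adjusted p = 0.0041), opposite to KRT8 and KRT19 there.

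Proteins that anchor or link keratin filaments were measured beside them, in a list that also holds the actin linker CTNNA1. Of 20 listed linkers 15 were tested: 2 were higher and 8 lower in shPALI1 (list median -0.26), 5 and 3 in shG9a (0.10), 4 and 6 in shJarid2 (-0.16), and 4 and 4 in shsuz12 (-0.09), beside 41.6%, 43.1%, 51% and 53.9% of all tested genes called in that order. In the shPALI1 comparison, scaling changed the count of lower linkers to between 4 and 6, and in shsuz12 the sign of the list median turned with quantile normalization (0.02) and TPM (0.03). PKP3, a desmosomal plakophilin, fell under all 4 hairpins, by 0.45, 0.65, 0.45 and 0.68 in shPALI1, shG9a, shJarid2 and shsuz12 (largest limma adjusted p = 0.0058).

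In shJarid2, where KRT8, KRT18, KRT19 and KRT14 were highest but KRT80 was not, some keratin anchors were lower and others higher. The desmosomal cadherins DSG2 and DSC2 fell by 1.02 (SE 0.14, limma adjusted p = 2.7e-05) and by 0.98 (SE 0.13, adjusted p = 2.5e-05), and the filament linker PLEC (plectin) fell by 0.77 (SE 0.10, adjusted p = 2.4e-05). DSC3, another desmosomal cadherin, rose by 0.77 ± 0.13 (adjusted p = 0.0002). DSG2 was at 71.6, 81.7 and 78.5 RPKM in pLKO and at 47, 41 and 27.7 RPKM in shJarid2, with replicate 3 the lowest.

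The other hairpins moved these anchors differently. DSC2 and DSG2 rose in shsuz12 by 0.55 ± 0.13 (limma adjusted p = 0.003) and 0.50 ± 0.14 (adjusted p = 0.0069), while DSC3 fell by 0.90 (SE 0.13). DSC1 rose in shG9a by 1.19 ± 0.11 (adjusted p = 1e-06), from a mean of 0.415 to 2.24 RPKM, and it passed the filter only through the shG9a libraries. CTNNA1 encodes alpha-catenin, which links junctions to actin and is not a keratin anchor. It rose in shPALI1 (0.49), shG9a (0.53) and shJarid2 (0.46) and fell in shsuz12 by 1.58 (SE 0.07, adjusted p = 1.5e-09).

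Among 16 other intermediate filament genes 5 were tested, with 1 higher and 1 lower in shPALI1, 0 and 2 in shG9a, 0 and 2 in shJarid2, and 2 and 3 in shsuz12, beside 41.6%, 43.1%, 51% and 53.9% of all tested genes called. The list medians were -0.15, -0.23, -0.12 and -0.34. VIM, the filament protein of mesenchymal cells, was at 0.833, 0.617 and 0.482 RPKM in pLKO and at 4.7, 5.62 and 3.82 RPKM in shPALI1. It rose by 1.79 ± 0.18 in shPALI1 (limma adjusted p = 2.6e-06), where KRT18 and KRT19 were lower, and by 0.99 ± 0.18 in shsuz12 (adjusted p = 0.00033). LMNB1, which encodes a lamin of the nucleus, fell by 2.24 in shJarid2 (SE 0.10, adjusted p = 1.9e-09) and by 1.16 in shsuz12 (SE 0.10, adjusted p = 5.9e-07).

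Of 21 epithelial transcription factors 15 were tested, with 1 higher and 9 lower in shPALI1 (list median -0.35), 2 and 7 in shG9a (-0.16), 7 and 2 in shJarid2 (0.11) and 2 and 9 in shsuz12 (-0.32), beside 41.6%, 43.1%, 51% and 53.9% of all tested genes called. The list also holds SNAI1, SNAI2, ZEB1 and ZEB2, which repress epithelial genes, and of these only SNAI1 was tested. SNAI1 counts among the lower genes in shG9a (-0.81), shJarid2 (-0.47) and shsuz12 (-0.64), where its fall is not loss of an epithelial activator. ELF3, an Ets factor of epithelial cells, had the same signs as KRT19. It fell by 0.71 in shPALI1 and rose by 0.86, 0.78 and 0.69 in shG9a, shJarid2 and shsuz12 (SE 0.09 in each, largest limma adjusted p = 1.8e-05). Its mean level was 13.8 RPKM in pLKO, 8.11 in shPALI1 and 23 to 25.9 RPKM in the others, so it did not share the shJarid2 maximum of KRT19.

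CEBPA and TFAP2C, transcription factors of differentiating epithelium, were highest in shJarid2. CEBPA rose there by 1.01 ± 0.11 (limma adjusted p = 3.4e-06) and fell by 0.73 in shPALI1 (SE 0.11, adjusted p = 0.0001). TFAP2C rose by 0.94 ± 0.09 in shJarid2 (adjusted p = 1.5e-06) and fell by 0.49 in shPALI1 (SE 0.09, adjusted p = 0.0008). SOX9, a factor of progenitor and ductal cells, fell by 1.20 in shPALI1 (SE 0.10, adjusted p = 5.5e-07) and by 0.86 in shG9a (SE 0.10, adjusted p = 1.4e-05).

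**Figure D5:**
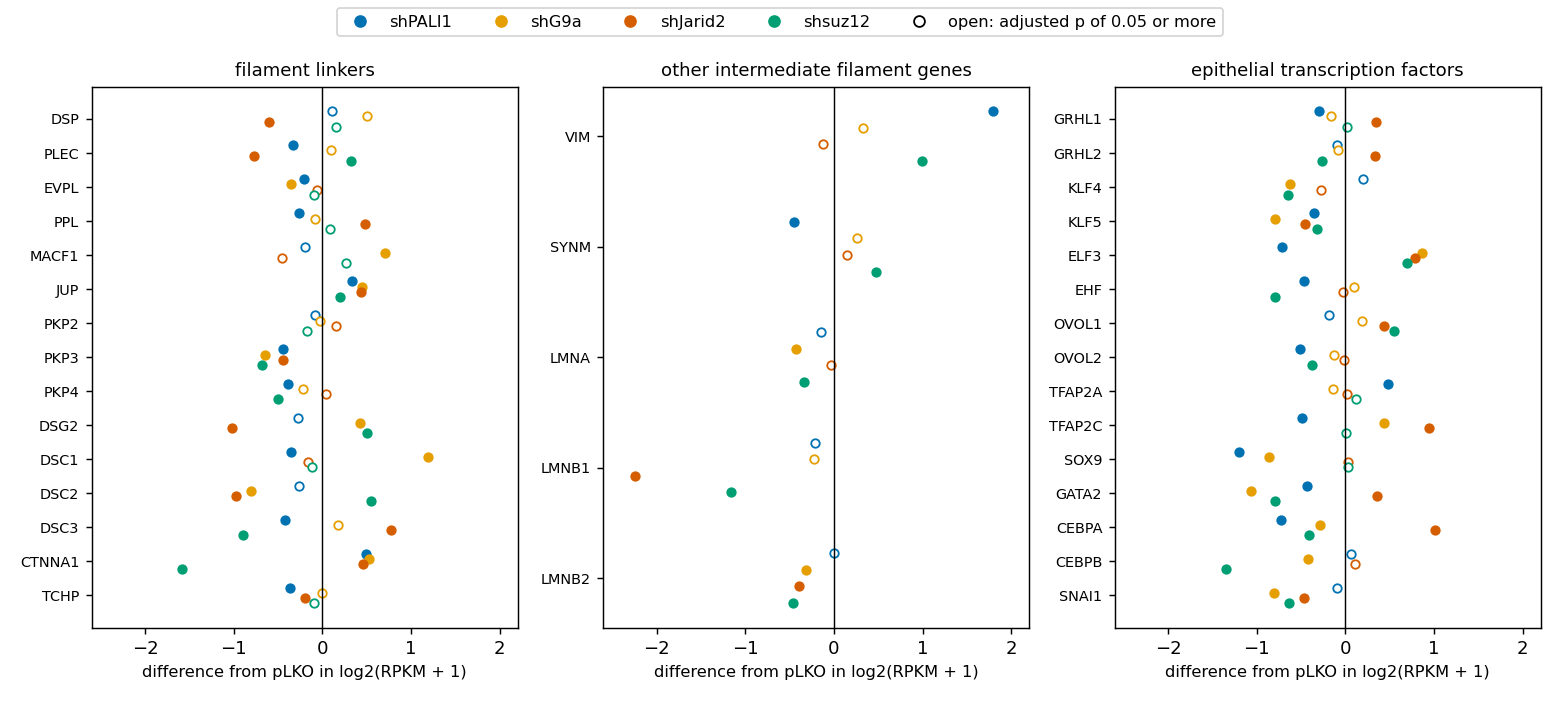
Difference from pLKO in log2(RPKM + 1) for the tested filament linkers, other intermediate filament genes and epithelial transcription factors; colours are hairpins, and open points had a limma adjusted p of 0.05 or more. PKP3 was below 0 under all 4 hairpins, and LMNB1 reached -2.24 in shJarid2.

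Luminal markers of the prostate were for the most part lower in shPALI1, shG9a and shsuz12. Of 12 tested, 1 was higher and 10 lower in shPALI1 (list median -0.85), 3 and 8 in shG9a (-0.63), 6 and 3 in shJarid2 (0.28) and 4 and 7 in shsuz12 (-0.31), beside 41.6%, 43.1%, 51% and 53.9% of all tested genes called. Their summed level was 2183 to 2383 RPKM in pLKO, 937 to 1048 in shPALI1, 1208 to 1276 in shG9a, 1722 to 1938 in shJarid2 and 1578 to 1691 RPKM in shsuz12. ACPP, the prostatic acid phosphatase, fell by 2.41 in shPALI1 and 1.34 in shG9a and rose by 1.41 in shJarid2 and 0.94 in shsuz12, whereas KLK3, the gene of prostate-specific antigen, was lower under all 4 hairpins. KLK3 made up a large part of the summed level, with means of 1108 RPKM in pLKO, 300 in shPALI1, 364 in shG9a, 614 in shJarid2 and 594 in shsuz12. The part of these shifts in the keratin differences was not tested.

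Basal markers other than keratins did not accompany KRT14 and KRT15 as a list. Of 10 listed, 4 were tested, with 0 higher and 2 lower in shPALI1 (list median -0.19), 2 and 1 in shG9a (0.42), 1 and 2 in shJarid2 (-0.29) and 2 and 0 in shsuz12 (0.18), beside 41.6%, 43.1%, 51% and 53.9% of all tested genes called. In shJarid2 the laminin gene LAMA3 rose by 0.84 ± 0.16 (limma adjusted p = 0.00058), while the hemidesmosome integrins ITGA6 and ITGB4 fell by 0.85 (SE 0.11) and by 0.39 (SE 0.09). Their summed level was 26.4 to 43.1 RPKM in shJarid2 and 25.8 to 31.5 RPKM in pLKO. TP63 was at or near 0 in every library.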

How the data were processed

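RNA from LNCaP cells was sequenced in 15 libraries, grouped by their labels, 3 to a group. The values are RPKM as deposited by the authors in 1 table. STAR and hg38 are named in the submitters' processing notes, while version, counter and annotation are not given in the sources. Reads per gene were recovered from the steps of the RPKM values, to within 0.0002 read for the keratin rows. Genes at 1 RPKM or more in at least 3 libraries (12715) were tested on log2(RPKM + 1), which understates the fold change of low genes. The test was limma 3.58.1 (R 4.3.3) with a mean-variance trend over all 15 libraries and Benjamini-Hochberg adjustment over all genes within each comparison, at 0.05. Exact 95% counting intervals cover counting error only, since PCR copies are not independent molecules. In data simulated for shPALI1 against pLKO over 12715 genes, changes of RPKM + 1 were planted. Of these, 82 of 100 genes changed 1.5-fold and 97 of 100 changed 2-fold were recovered, with 5 false calls. Only genes with a pLKO mean log2(RPKM + 1) above 2 were given a change, so these shares do not give the power for members low in pLKO. Those were KRT14, KRT80 and KRT19, with pLKO means of 0.361, 0.375 and 2.71 RPKM. Members and lists were chosen with earlier results of these data known. Named genes were the members, the targets, up to 4 passing genes of a list per comparison by size, and the 3 genes most like each tested member at a mean of 2 RPKM or more, of which 1 is not reported here. Neighbours in the keratin cluster and markers near 0 were named after their values were seen. Alternatives were pseudocounts of 0.1 and 0.5, other filters and scalings, 6 libraries alone, the replicate block and leaving out each library.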

Additional observations from a re-analysis of the deposited data

How the results depend on the processing

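Over 10 kinds of alternative, the 5 tested keratins had 292 recomputed differences, of which 259 kept direction and side of the threshold, 12 lost the call, 10 gained one and 11 turned in sign. All 11 were differences near 0 in shsuz12 against pLKO. KRT8 turned to 0.05 with median ratio scaling, 0.10 with TPM and 0.15 with quantile normalization, and ranged from -0.07 to 0.01 when 1 library was left out. KRT14 turned to 0.07 with a pseudocount of 0.1, 0.01 with median ratio scaling and 0.02 with TPM, and ranged from -0.16 to 0.11 when 1 library was left out. Of the 11, KRT8 with quantile normalization passed the threshold. Keeping genes whose mean RPKM was 3 or more left 3 members tested (KRT14 and KRT80 dropped out), so that 2 were called in shG9a against pLKO, 3 in shJarid2 against pLKO, 3 in shPALI1 against shJarid2, 1 in shPALI1 against shsuz12, 3 in shG9a against shJarid2 and 3 in shJarid2 against shsuz12. With no filter 1 was called in shPALI1 against shsuz12, and with the 6 libraries alone 5 in shG9a against shsuz12; the cause was not tested. Leaving out 1 library gave 1 to 2 calls in shPALI1 against shsuz12, where the KRT80 call was lost without shPALI1 replicate 1 or 2 or any 1 shsuz12 library (and with pseudocounts of 0.1 and 0.5, no filter, median ratio scaling, TPM and the 6 libraries alone), 2 to 4 in shPALI1 against pLKO and 5 in each contrast with shJarid2. KRT19 and KRT80 passed against pLKO under every alternative that tested them, and KRT14 in shJarid2 likewise. The KRT14 differences in shG9a (-1.39 to -0.23) and shPALI1 (-1.33 to -0.22) depend on the pseudocount and rest on few reads.

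The replicate numbers do not pair the samples: 30 same-number pairs had r between -0.27 and 0.30, and 7 of 15 libraries correlated best with their own number. With the replicate block 3 members were called in shG9a against pLKO in place of 4 (KRT14 missed, adjusted p = 0.0693), and the other counts were the same. Rescaling to a common sum moved the median of all genes by over 0.1 in some comparisons, for example shJarid2 against shsuz12 from 0.049 to -0.079.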
